A study of Macaca mulatta with 4 samples.

Results

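Lymphocytes find their way into and out of lymphoid organs through a small set of surface receptors. The genes described here are the 9 of this kind that were listed by symbol: the chemokine receptors CCR7, CXCR4, CCR9, CXCR3 and CX3CR1, the sphingosine 1-phosphate receptors S1PR1 and S1PR5, the integrin chain ITGB7 and the transcription factor KLF2. All 9 had a row among the 15354 gene rows of the deposited tables. They were measured by droplet single-cell RNA sequencing of peripheral blood mononuclear cells (PBMCs, the lymphocytes, monocytes and dendritic cells of blood) of rhesus macaque, in a study of transplanted islets made from human pluripotent stem cells (hCiPSC-islets). There were 4 libraries, 1 for each time of sampling. Pre-IS was taken before immunosuppression, Post-IS after it and ahead of the transplant, and the other 2 (named 4 wpt and 8 wpt) 4 and 8 weeks after transplantation. The labels do not name the immunosuppressive drugs, and they do not say whether a single animal gave all of the libraries. The Post-IS, 4 wpt and 8 wpt samples all followed the start of immunosuppression, and the labels do not say whether it went on after the transplant, so drug and graft cannot be told apart at 4 and 8 wpt.

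A recirculating lymphocyte enters lymph nodes from blood with the help of CCR7, which reads the chemokines CCL19 and CCL21, and leaves them by following sphingosine 1-phosphate, which is plentiful in blood and lymph, with S1PR1. KLF2 keeps resting T cells in this traffic and drives transcription of S1PR1 in mice and humans. Effector T cells, NK cells and nonclassical monocytes stay largely in the circulation and carry CX3CR1, the receptor for fractalkine on endothelium. CXCR4 holds cells in bone marrow through CXCL12, CCR9 with ITGA4 and ITGB7 directs cells to the gut, and CXCR3 directs them to tissue where interferon-induced chemokines are made.

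The tables held 6993 cells with the authors' own cell type labels: 1928 at Pre-IS, 603 at Post-IS, 1882 at 4 wpt and 2580 at 8 wpt. Median depth was 1563, 1168, 3551 and 1877 UMIs per cell in that order, a UMI (unique molecular identifier) standing for 1 captured RNA molecule. The pairs of libraries shared between 0 and 12 cell barcodes. Post-IS held few lymphocytes: 115 T cells, 9 NK cells, 12 B cells and 1 naive B cell, against 841, 257, 351 and 110 at Pre-IS. Only T cells, CD14+ monocytes and MS4A7+ monocytes reached the 50 cells per library that were asked for in a Post-IS comparison. The label T cell was checked against 8 T cell markers, which all had UMIs in T cells of every library and summed to between 4954 and 5405 CPM. All 8 also had UMIs in NK cells of every library, at between 1822 and 2129 CPM. The check thus cannot tell T cells from NK cells by the presence of these markers. Levels are given in this unit, CPM, the UMIs of a gene per 1000000 UMIs of all cells of a label in a library, with an exact Poisson 95% interval in parentheses. A ratio of CPM carries an exact conditional binomial 95% interval. A gene was called higher or lower at 1.5-fold or more with at least 20 UMIs over both libraries. With 1 library per time no test between times was possible, and all intervals cover counting error only. They treat UMIs as independent, though several can sit in 1 cell, and none covers differences between animals or draws.

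T cells carried the widest range of these genes. CX3CR1, which marks circulating effector T cells, had 188 UMIs in T cells at Pre-IS, 0 at Post-IS, 270 at 4 wpt and 433 at 8 wpt. Its level was 139 CPM (120.1 to 161), 0 CPM (0 to 25.7), 85.1 CPM (75.3 to 95.9) and 194 CPM (176 to 213) at these times. The gene was thus without a UMI in Post-IS T cells, and the other 3 intervals did not overlap each other or the Post-IS one. A UMI of CX3CR1 was found in 15.5% of T cells at Pre-IS, in 0 of 115 at Post-IS, in 12.1% at 4 wpt and in 22.5% at 8 wpt. For 0 of 115 cells the floor of 3 counts is a share of 2.61%, and the exact interval reaches 3.16%. After each cell was thinned to 1000 UMIs, which evens out depth, the shares were 11.2%, 0%, 6.91% and 16.6%. Among B cells, which should lack the gene, the shares were 1.71% at Pre-IS (median depth 1512 UMIs, against 1526 in T cells), 9.65% at 4 wpt (3890 against 3626) and 3.93% at 8 wpt (2134.5 against 1810). The thinned B cell shares were 0.342%, 4.63% and 1.74%, so the T cell share was the higher one at these times. At 4 wpt the intervals overlapped, at 10.1% to 14.5% in T cells against 4.92% to 16.6% in B cells, and thinned at 5.30% to 8.82% against 1.52% to 10.47%.

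S1PR5, the sphingosine 1-phosphate receptor by which NK cells leave bone marrow and lymph nodes in mice, had the same order of levels over the 4 times at a low count. It had 50, 0, 34 and 84 UMIs in T cells at Pre-IS, Post-IS, 4 wpt and 8 wpt, or 37.0 CPM (27.5 to 48.8), 0 CPM (0 to 25.7), 10.7 CPM (7.42 to 15.0) and 37.6 CPM (30.0 to 46.5). The Post-IS interval takes in the 4 wpt level but neither of the others. S1PR1, the receptor by which T cells leave lymph nodes, differed little: 159 CPM (138 to 181), 125 CPM (74.2 to 198), 184 CPM (169.8 to 200) and 203 CPM (185 to 222). Its intervals overlapped for neighbouring times, and only the Pre-IS and 8 wpt ones lay apart.

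KLF2, the transcription factor of resting, recirculating cells, was at 465 CPM (429.5 to 503) at Pre-IS, 793 CPM (654 to 953) at Post-IS, 478 CPM (455 to 503) at 4 wpt and 686 CPM (652 to 721) at 8 wpt. The Pre-IS and 4 wpt levels lay together, and the Post-IS and 8 wpt levels lay above them. CCR7, the receptor for lymph node entry of naive and central memory cells, stood at 364 CPM (333 to 398), 452 CPM (349 to 576), 387 CPM (365 to 409) and 306 CPM (284 to 330). The 8 wpt level was the lowest, with an interval that ended below those of the other 3 times.

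CXCR4, the CXCL12 receptor, was at 100 CPM (83.8 to 118) at Pre-IS, 181 CPM (118 to 265) at Post-IS, 121 CPM (109 to 133) at 4 wpt and 66.7 CPM (56.4 to 78.3) at 8 wpt in T cells. The 8 wpt interval lay below the others. CXCR3, a receptor of effector and memory cells for interferon-induced chemokines, was at 65.9 CPM (52.9 to 81.1), 34.8 CPM (11.3 to 81.2), 73.5 CPM (64.3 to 83.5) and 50.1 CPM (41.3 to 60.3). Its Post-IS level rests on 5 UMIs.

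The gut-homing pair was highest in Post-IS T cells. ITGB7, the integrin chain that pairs with ITGA4 to bind the gut vessel addressin, was at 149.6 CPM (129.7 to 172), 250.5 CPM (175 to 347), 149 CPM (136 to 163) and 125 CPM (111 to 140.4) at Pre-IS, Post-IS, 4 wpt and 8 wpt. CCR9, the receptor for the small intestinal chemokine CCL25, was at 27.4 CPM (19.3 to 37.8), 97.4 CPM (53.3 to 163), 10.1 CPM (6.90 to 14.2) and 14.8 CPM (10.2 to 20.7). These rest on 37, 14, 32 and 33 UMIs in 23, 9, 15 and 15 cells, and at 8 wpt a single cell held 11 of the 33. The Post-IS levels of both genes lay above the other 3 intervals. In CD14+ monocytes, which should lack CCR9, it had 1, 0, 0 and 1 UMIs. B cells had it in 1.42% of cells at Pre-IS, 1.75% at 4 wpt and 1.12% at 8 wpt, against 2.73%, 1.69% and 1.28% of T cells, at the depths given above. At 4 wpt the T cell share was not above that of B cells. At Pre-IS and 8 wpt the intervals of both labels overlapped. The CCR9 share of T cells was thus not clear of that of B cells at these 3 times. Whether the B cell UMIs are background was not tested. NK cells had 0 CCR9 UMIs in 257, 270 and 659 cells, with upper limits of 1.43%, 1.36% and 0.558%. The T cell intervals began at 1.74%, 0.947% and 0.717%, above the NK cell limit at Pre-IS and 8 wpt but not at 4 wpt. The B cell shares rest on 5, 2 and 2 cells. In CD14+ monocytes CCR9 and S1PR5 were in at most 0.391% of cells, CXCR3 in at most 0.578% and CCR7 in at most 0.962%.

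**Figure D1:**
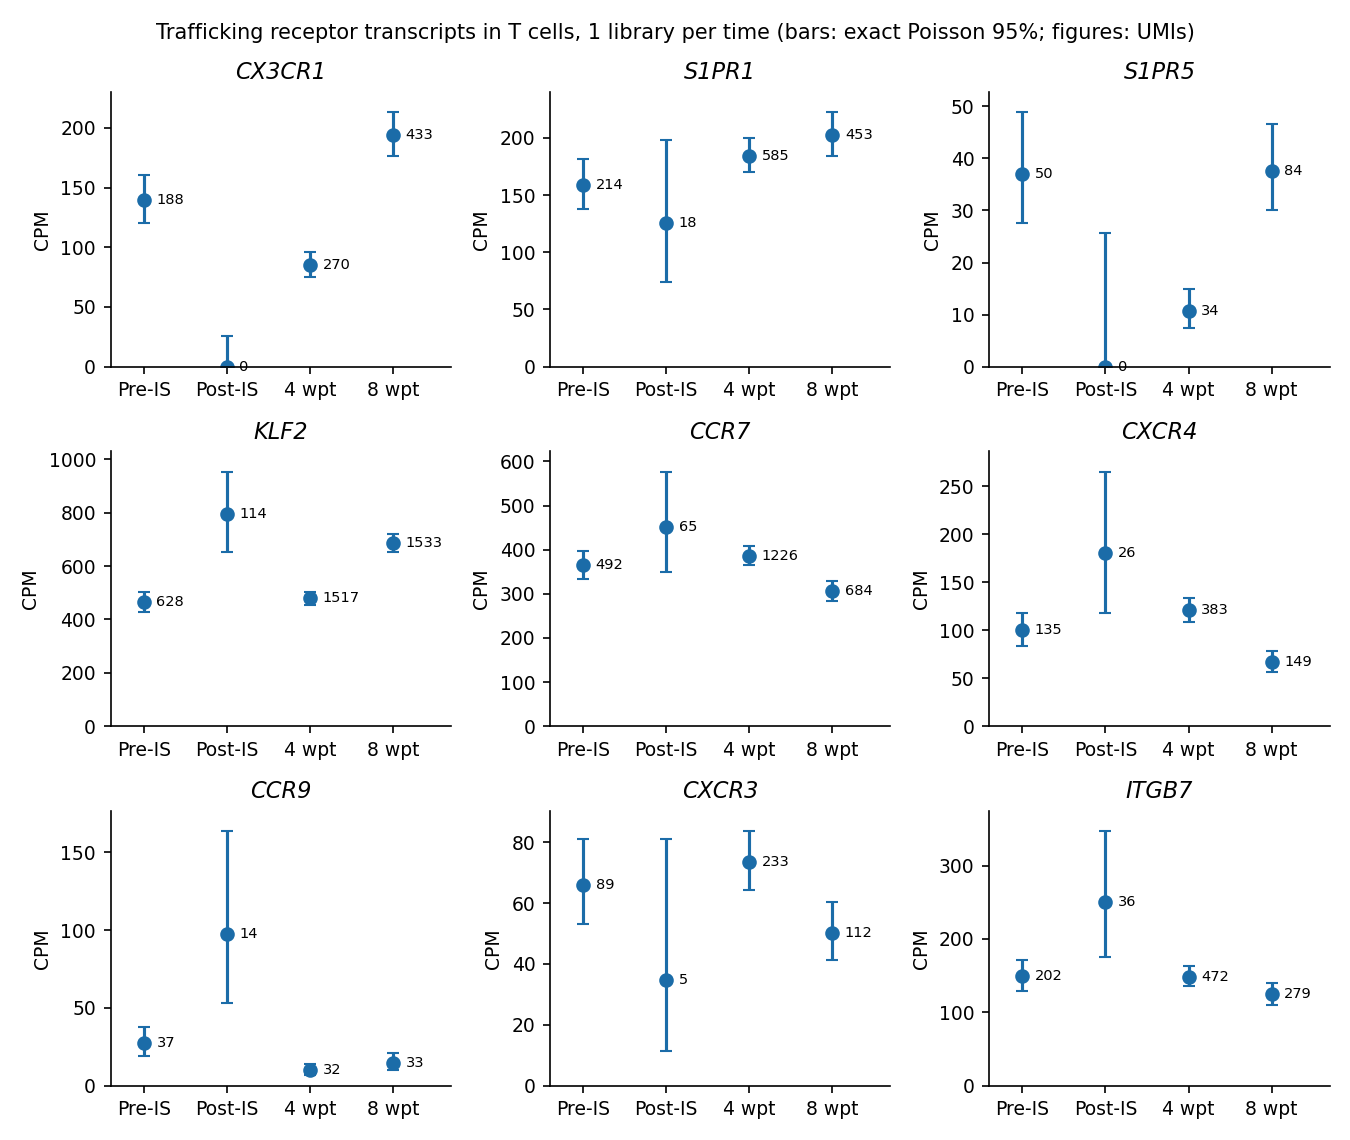
CPM of each of the 9 genes in T cells, 1 panel per gene, with the 4 libraries from Pre-IS to 8 wpt along the x axis; points are levels, bars exact Poisson 95% intervals and the figures beside the points UMIs. CX3CR1 and S1PR5 are at 0 at Post-IS, while KLF2, CXCR4, CCR9 and ITGB7 have their highest point there.

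The plot of T cell levels shows these 2 directions at Post-IS side by side. Post-IS over Pre-IS covers the start of immunosuppression with no graft given. In T cells 4 of the 9 genes were called higher, 3 lower and 2 lay between. Of all 6612 genes with enough UMIs, 14.4% were called higher and 28.4% lower. The median log2 ratio of the 9 genes was 0.32, against -0.00 for all of these genes. CX3CR1 was at least 6.67-fold lower in Post-IS T cells, taking 3 UMIs as the Post-IS floor, and the exact 95% interval put it at least 5.37-fold lower. S1PR5 was at least 1.77-fold lower, with an exact bound of 1.39. The genes called higher were CCR9 at 3.55-fold (1.77 to 6.73), CXCR4 at 1.81-fold (1.14 to 2.77), KLF2 at 1.71-fold (1.38 to 2.08) and ITGB7 at 1.67-fold (1.14 to 2.40). CXCR3 was called lower at 1.90-fold, but its interval ran from 0.782 to 5.98 and includes no difference. CCR7 at 1.24-fold (0.943 to 1.61) and S1PR1 at 0.790-fold (0.459 to 1.28) lay between.

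Other genes of T cell subsets moved beside these 9, and their part in the result was not tested. The share of T cells with at least 3 UMIs of a cytotoxic gene list was 17.4% at Post-IS, against 42.4% at Pre-IS. CD8A, a chain of the coreceptor of cytotoxic T cells, was at 76.5 CPM at Post-IS, against 191 CPM at Pre-IS, and CD4 at 83.5 CPM against 119 CPM. The 7 monocyte genes of a purity list summed to 139 CPM in Post-IS T cells, with VCAN, FCN1 and MS4A7 at 0, and to 24.4 CPM in Pre-IS T cells, with FCN1 and MS4A7 at 0. In CD14+ monocytes that list summed to between 21816 and 24792 CPM over the 4 libraries. A list of 9 NK cell markers summed in T cells to 3265 CPM at Pre-IS and 1746 CPM at Post-IS. At 4 wpt and 8 wpt it summed to 2323 and 3386 CPM. FCGR3 of this list was at 0 in T cells at Post-IS alone. The part of NK cell transcripts in the CX3CR1 and S1PR5 levels of T cells was not tested. Median T cell depth was 1257 UMIs at Post-IS, against 1526 at Pre-IS.

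The next step, 4 wpt over Post-IS, shares the Post-IS library with the first one, so the 2 are not independent. In T cells 3 genes were called higher and 3 lower, with 32.7% and 14.4% of 8436 genes as background. CX3CR1 was at least 4.08-fold higher at 4 wpt, with an exact bound of 3.29. S1PR5 was called higher from 34 UMIs against 0, but its 10.7 CPM lies below the Post-IS floor of 20.9 CPM, so no fold is supported. CXCR3 was 2.11-fold higher with an interval of 0.892 to 6.57. CCR9 was 9.65-fold lower (4.76 to 18.6), ITGB7 1.68-fold lower (1.16 to 2.36) and KLF2 1.66-fold lower (1.36 to 2.01). Measured against Pre-IS instead, 4 wpt T cells had 0 of the 9 genes higher and 3 lower, with 13.3% and 7.15% of 8903 genes as background. Those lower were S1PR5 at 3.45-fold (2.19 to 5.51), CCR9 at 2.72-fold (1.65 to 4.50) and CX3CR1 at 1.64-fold (1.35 to 1.98). The CCR9 share of T cells was not clear of that of B cells at either time. KLF2 stood at 1.03-fold (0.936 to 1.13) and ITGB7 at 0.995-fold (0.842 to 1.18), so both were close to their Pre-IS level at 4 wpt.

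Between the 2 times after the graft, CX3CR1 and S1PR5 were higher at the later one. In T cells 8 wpt over 4 wpt had 2 genes called higher and 1 lower, with 6.84% and 8.53% of 9142 genes as background. S1PR5 was 3.51-fold higher (2.33 to 5.39) and CX3CR1 2.28-fold higher (1.95 to 2.66) at 8 wpt. CXCR4 was 1.81-fold lower (1.49 to 2.20). KLF2 was 1.43-fold higher (1.34 to 1.54), short of the size asked for but with an interval clear of 1. CCR7 was 0.792-fold (0.720 to 0.870) and CXCR3 0.682-fold (0.540 to 0.858) of the 4 wpt level. At 8 wpt over Pre-IS no gene was called higher and 1 of 9 was called lower, with 9.08% and 5.52% of 8495 genes as background. The lower one was CCR9 at 1.86-fold (1.13 to 3.06), with a T cell share not clear of that of B cells at either time. CXCR4 was 1.5-fold lower (1.18 to 1.91), just short of a call. S1PR5 was back at its Pre-IS level, at 1.02-fold (0.707 to 1.47), while CX3CR1 at 1.39-fold (1.17 to 1.66) and KLF2 at 1.47-fold (1.34 to 1.62) lay above theirs.

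**Figure D2:**
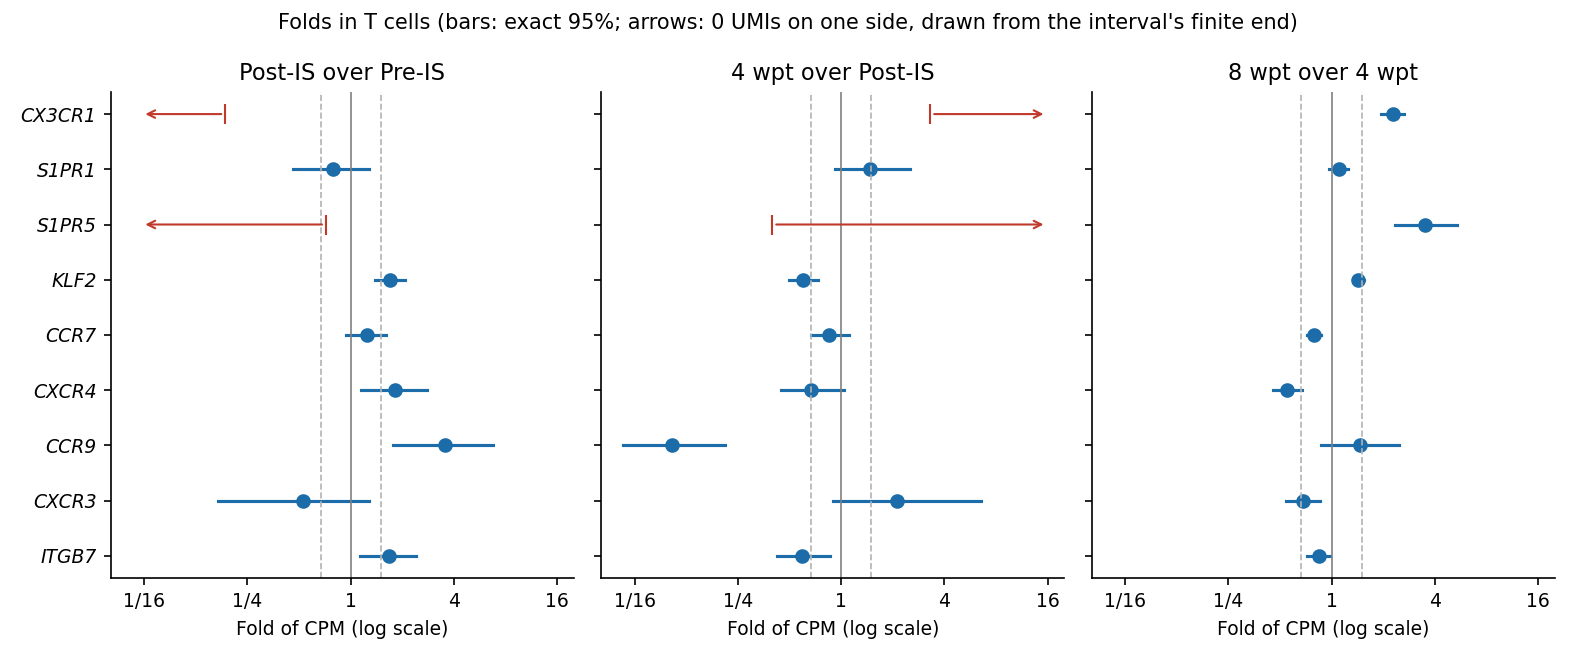
Fold of CPM in T cells on a log x axis for each of the 9 genes (y axis), 1 panel per comparison, later library over earlier; bars are exact 95% intervals and arrows mark genes with 0 UMIs on one side. CX3CR1 and S1PR5 lie left of 1 at Post-IS over Pre-IS and right of 1 for 8 wpt over 4 wpt, and CCR9 changes sides between the Pre-IS and the Post-IS comparison.

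The plot of T cell folds sets these comparisons next to each other, with the widest bars where Post-IS counts were low. Of 84 other trafficking genes from a list of chemokine and lipid receptors, adhesion molecules, transcription factors and signalling partners, 52 had enough UMIs in T cells at Post-IS over Pre-IS. Of these 6 were called higher and 14 lower, near the 14.4% and 28.4% of all genes. LEF1, which works in naive T cells as a transcription factor, was 2.03-fold higher (1.57 to 2.59) in Post-IS T cells, at 550 CPM against 271 CPM. ZEB2, a transcription factor of terminal effector cells, had 0 UMIs at Post-IS against 130 at Pre-IS and was at least 4.61-fold lower, with an exact bound of 3.7. TBX21, the master regulator of type 1 effector cells, had 0 against 62 and was at least 2.20-fold lower, with an exact bound of 1.74. At 8 wpt over 4 wpt, 8 of 66 were higher and 5 lower, against 6.84% and 8.53% of all genes. TBX21 was 2.38-fold higher (1.76 to 3.24) and ZEB2 2.07-fold higher (1.66 to 2.58), and CCR2, a receptor for inflammatory chemokines, was 2.55-fold lower (1.70 to 3.92). At 8 wpt over Pre-IS 0 of 62 was higher and 0 lower, against 9.08% and 5.52% of all genes.

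Within T cells the members fell into cells of different kinds. T cells were divided by their UMIs of 10 cytotoxic genes, none of them a member, at 3 or more against fewer. This is a range of a score and not a cell type. Between 3.48% and 8.68% of T cells lay within 1 UMI of the dividing value. That value was not scaled to depth. Median T cell depth was 1526 UMIs at Pre-IS, 1257 at Post-IS, 3626 at 4 wpt and 1810 at 8 wpt. With cells thinned to 1000 UMIs before the cut, 18 of 72 levels moved. Levels of a range at different times are thus not compared at even depth. CX3CR1 was at 338 CPM in cells with 3 or more cytotoxic UMIs, against 16.8 CPM in the rest, at Pre-IS. At 4 wpt the pair was 201 against 1.63 CPM, and at 8 wpt 423 against 1.65 CPM. Nearly all CX3CR1 UMIs of T cells were therefore in cells with cytotoxic transcripts, at 174 of 188, 267 of 270 and 431 of 433 UMIs. S1PR5 was divided in the same way: 85.6 against 7.18 CPM, 25.6 against 0 CPM and 80.4 against 1.65 CPM. The Post-IS T cells at or above 3 cytotoxic UMIs were 20 cells, in which 0 UMIs of CX3CR1 allow up to 131 CPM by the exact interval. The level of such cells at 4 wpt, 201 CPM (177 to 226), lies above that interval.

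CCR7 lay on the other side. In cells with 3 or more cytotoxic UMIs it was at 85.6 CPM at Pre-IS, 178 CPM at Post-IS, 196 CPM at 4 wpt and 48.1 CPM at 8 wpt, and in the remaining T cells at 536, 519, 524 and 523 CPM. The intervals of the remaining T cells overlapped over all 4 libraries. In the cytotoxic range the 4 wpt level (173 to 221) lay above those at Pre-IS (62.2 to 115) and 8 wpt (35.5 to 63.5). T cells were also deepest at 4 wpt, so this difference is not one at even depth. CXCR3 was higher in cells with 3 or more cytotoxic UMIs in all 4 libraries, at 93.3 against 49.1 CPM, 107 against 17.3 CPM, 93.2 against 59.2 CPM and 57.9 against 43.6 CPM, with intervals apart at Pre-IS and 4 wpt. S1PR1 was lower in them at Pre-IS, 4 wpt and 8 wpt, at 126, 139 and 152 CPM against 178, 217 and 245 CPM, with intervals apart at 4 and 8 wpt. KLF2 differed little between the 2 ranges at Pre-IS (488 against 451 CPM), Post-IS (783 against 796 CPM) and 8 wpt (683 against 689 CPM), and was lower in the cytotoxic range at 4 wpt (394 against 540 CPM). The higher KLF2 level of 8 wpt T cells was therefore seen in both ranges. That of Post-IS T cells was seen in the remaining cells, at 796 CPM against 451 CPM at Pre-IS. The Post-IS cytotoxic range held few cells, as given above, so a higher KLF2 level in it was not established. CCR9 had 0 UMIs in the cytotoxic range at Pre-IS and Post-IS and was in 1 cell of that range at 4 wpt and in 1 at 8 wpt.

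**Figure D3:**
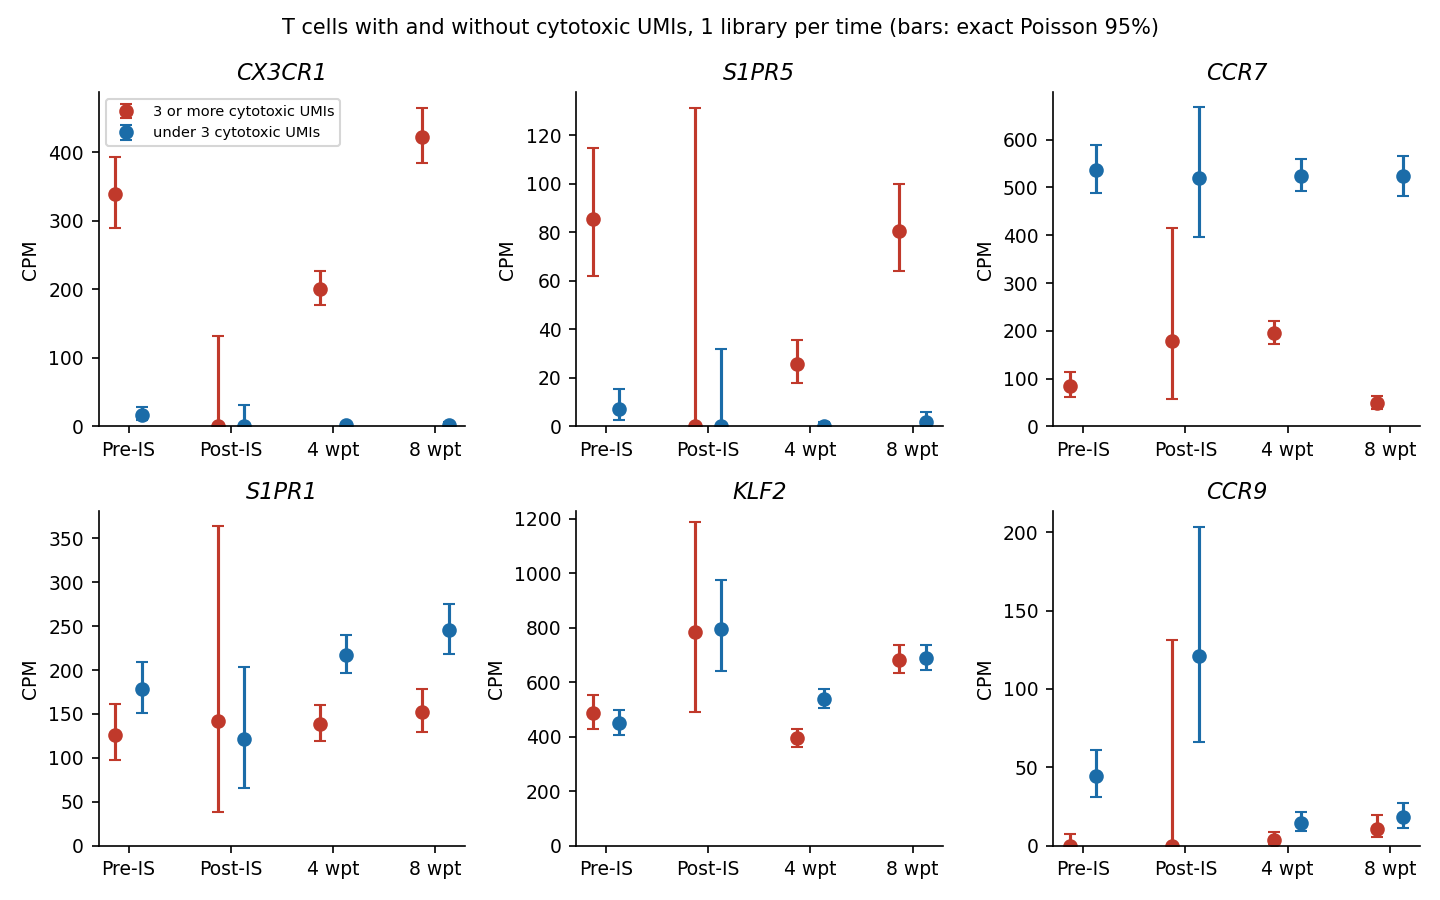
CPM in T cells with 3 or more cytotoxic UMIs and in those with fewer, 1 panel per gene, libraries from Pre-IS to 8 wpt on the x axis; bars are exact Poisson 95% intervals. CX3CR1 and S1PR5 sit almost wholly in the first range, CCR7 is higher in the second, and KLF2 is found in both.

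The plot of T cells by cytotoxic UMIs shows which members divide in this way. For CX3CR1 and CCR7 the division also appeared cell by cell. Of the T cells with a CX3CR1 UMI, 0 of 130 had a CCR7 UMI at Pre-IS, 1 of 108 at 4 wpt and 2 of 264 at 8 wpt. Of T cells without CX3CR1, 39.1%, 57% and 37.6% had one. Thinned to 1000 UMIs per cell, no cell of 84, 59 and 186 with CX3CR1 had CCR7, against 28.0%, 28.3% and 25.0% of the others. UMIs of the receptor of circulating effector cells and of the receptor for lymph node entry were thus rarely found in the same T cell. S1PR5 was in 16.2%, 16.7% and 15.5% of T cells with CX3CR1, against 2.95%, 1.79% and 3.63% of those without. Thinned, it was in 11.9%, 3.39% and 11.8%, against 2.69%, 0.881% and 3.42%. The thinned 4 wpt share rests on 2 of 59 cells, with an interval (0.413% to 11.7%) that overlapped that of cells without CX3CR1 (0.355% to 1.81%). In NK cells, where both genes are widespread, S1PR5 was in 21.4% of cells with CX3CR1 and 26.2% of those without at Pre-IS. The shares were 41.1% against 26.6% at 4 wpt and 26.2% against 19.8% at 8 wpt. Thinned, these shares were 10.8% against 14.4%, 17.9% against 9.09% and 14.2% against 14.7%, with overlapping intervals. CXCR3 was found with CCR7 in more of its cells than CX3CR1 was. At Pre-IS, 4 wpt and 8 wpt 13.0%, 30.5% and 21.4% of T cells with CXCR3 had CCR7, against 34.8%, 54.3% and 30.0% of those without. Thinned, the shares were 5%, 13.1% and 11.1%, against 25.9%, 27.4% and 21.3%. The thinned intervals of cells with CXCR3 and of cells with CX3CR1 overlapped at Pre-IS (0.611% to 16.9% against 0% to 4.30%) and at 4 wpt (5.84% to 24.2% against 0% to 6.06%). They lay apart at 8 wpt.

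S1PR1, a target of KLF2, was found in T cells with and without a KLF2 UMI. It was in 21.3% of cells with KLF2 and 21.7% of those without at Pre-IS, 45.6% against 34.1% at 4 wpt and 33.3% against 27.2% at 8 wpt. Thinned, the shares were 13.9% against 15.8%, 14.5% against 14.2% and 19.5% against 17.4%. The difference at 4 wpt was thus not present at even depth. At Post-IS S1PR1 was in 12 of 66 cells with KLF2 (18.2%), against 2 of 49 without (4.08%), and thinned in 13.0% against 7.69%, with intervals that overlapped in both cases. CCR9 was in too few T cells to read its overlap with ITGB7: 8 of 23, 4 of 9, 6 of 15 and 3 of 15 cells with CCR9 also had ITGB7 at Pre-IS, Post-IS, 4 wpt and 8 wpt.

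NK cells had the highest S1PR5 level of any label, and only MS4A7+ monocytes had more CX3CR1. CX3CR1 was at 417 CPM (359 to 482) at Pre-IS, 345 CPM (310.4 to 382) at 4 wpt and 494 CPM (455 to 535) at 8 wpt, with a UMI in 43.6%, 54.1% and 53.3% of NK cells, or 30.7%, 25.3% and 38.2% after thinning. S1PR5 was at 183 CPM (145 to 228), 118 CPM (98.3 to 141) and 153 CPM (132 to 177). The 9 Post-IS NK cells held 0 UMIs of CX3CR1, which allows up to 210 CPM by the exact interval, and were not compared. Both genes were lowest at 4 wpt among these 3 times, though the Pre-IS and 4 wpt intervals of CX3CR1 overlapped. At 4 wpt over Pre-IS, 1 of the 8 members with enough UMIs was called higher in NK cells and 2 lower, with 17.5% and 9.31% of 6715 genes as background. CXCR4 was 2.67-fold higher (1.20 to 7.03) on 45 against 7 UMIs, ITGB7 2.10-fold lower (1.46 to 3.0) and S1PR5 1.55-fold lower (1.16 to 2.07).

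KLF2 and S1PR1 were higher in NK cells at 8 wpt than at 4 wpt. KLF2 was at 413 CPM (354 to 477) at Pre-IS, 360.3 CPM (325 to 399) at 4 wpt and 738 CPM (690.0 to 788) at 8 wpt. Of 8 members, 3 were called higher at 8 wpt over 4 wpt and 1 lower, with 8.96% and 9.08% of 7574 genes as background. KLF2 was 2.05-fold higher (1.81 to 2.32), ITGB7 1.88-fold higher (1.41 to 2.53) and S1PR1 1.70-fold higher (1.19 to 2.46). CXCR4 was 5.13-fold lower (2.55 to 11.4), at 8.37 CPM against 42.9 CPM. CCR9 had 0 UMIs in NK cells of all 4 libraries. Of the other trafficking genes, 4 of 57 were called higher and 6 lower in this comparison, and 8 of 54 higher and 4 lower at 4 wpt over Pre-IS, where 17.5% and 9.31% of all genes were.

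Naive B cells and B cells, 2 labels of the authors, differed widely in CXCR4 and CXCR3. At 8 wpt CXCR4 was at 356 CPM (274 to 456) in naive B cells, against 9.91 CPM in B cells, and at Pre-IS at 492 CPM (389 to 614) against 15.5 CPM. CXCR3 was the reverse, with 1 UMI in naive B cells at 8 wpt and 0 at Pre-IS, against 91.6 CPM (64.5 to 126) and 107 CPM (82.0 to 137) in B cells. CCR7 also stood higher in naive B cells, at 73.5 CPM at 8 wpt and 119.8 CPM at Pre-IS, against 17.3 CPM and 41.4 CPM in B cells. How the authors set these labels is not given in the sources used here, so the differences describe the labels and carry no test. KLF2 was at 1192 CPM (1037 to 1365) in naive B cells at 8 wpt and at 889 CPM (748 to 1048) at Pre-IS, higher than in any other label of these 2 libraries, with intervals that overlapped those of B cells.

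Over time, 6 members had enough UMIs in B cells for 8 wpt over Pre-IS. CX3CR1 was called higher, and S1PR1 and CCR7 lower, with 11.3% and 11.8% of 5816 genes as background. CCR7 was 2.39-fold lower (0.999 to 6.57) and S1PR1 1.51-fold lower (0.965 to 2.41), both with intervals that reach 1. CX3CR1 was 4.54-fold higher (1.74 to 13.9) on 19 UMIs against 6. Of these 19 UMIs, 15 were in 19 B cells marked as possible doublets by very high depth or markers of another lineage (252 CPM), against 11.6 CPM in the other 8 wpt B cells. NK cell markers had UMIs in 6 of the 7 B cells with CX3CR1 at 8 wpt, and in 27.5% of those without. Without possible doublets the log2 ratio was 0.49, against 2.11 with them, and the call was lost. At 4 wpt the gene was at 47.7 CPM in B cells. Of its 23 UMIs, 22 were outside possible doublets and 8 were in 1 cell. NK markers were in 27.3% of the cells with CX3CR1 and 29.1% of those without. The marking of possible doublets was not shown to cover doublets of B and NK cells. In naive B cells 5 members could be compared for 8 wpt over Pre-IS. None was called higher, and CCR7 was called lower at 1.63-fold (0.764 to 3.59), with 12.1% and 11% of 2282 genes as background.

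Monocytes carried CX3CR1, KLF2 and CXCR4. In MS4A7+ monocytes, whose name points to the nonclassical kind, CX3CR1 was at 519.8 CPM (388 to 682) at Pre-IS, 428 CPM (326 to 552) at Post-IS, 516 CPM (454 to 585) at 4 wpt and 652 CPM (528 to 797) at 8 wpt. In CD14+ monocytes it was at 128 CPM (99.5 to 161), 136 CPM (104 to 175), 67.2 CPM (53.2 to 83.8) and 112 CPM (92.2 to 134). Monocytes therefore held CX3CR1 at Post-IS, when T cells had no UMI of it. KLF2 in CD14+ monocytes was at 228 CPM (189.8 to 272), 479 CPM (417 to 548), 179 CPM (156 to 205) and 294 CPM (262 to 329), highest at Post-IS. CXCR4 was at 63.9, 120.4, 50.2 and 45.2 CPM, also highest there.

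At Post-IS over Pre-IS, 2 of the 4 members with enough UMIs were called higher in CD14+ monocytes and 0 lower, with 16.6% and 13% of 5152 genes as background. These were KLF2 at 2.10-fold (1.68 to 2.64) and CXCR4 at 1.89-fold (1.21 to 2.97), which were also called higher in Post-IS T cells, at 1.71-fold and 1.81-fold. Of the other trafficking genes 9 of 50 were higher and 4 lower. The 5 platelet genes of a marker list summed to 261 CPM in CD14+ monocytes at Post-IS, against 23.7 CPM at Pre-IS with PF4, GP9 and ITGA2B at 0, and their part in the result was not tested. In T cells, where KLF2 and CXCR4 were called higher too, all 5 were at 0 at Post-IS. The summed level of these platelet genes in Pre-IS T cells lay below the Post-IS T cell floor of 20.9 CPM. The 0 thus cannot tell a change in them from none, and their part in the T cell result was not tested. KLF6 and KLF4, relatives of KLF2, were 3.27-fold (2.66 to 4.04) and 2.27-fold (1.72 to 3.0) higher in CD14+ monocytes. Both were lower in this label at 4 wpt over Post-IS, at 4.05-fold (3.41 to 4.83) and 2.42-fold (1.93 to 3.03). GPR183, another attractant receptor, was 4.78-fold lower (2.56 to 9.20) in that comparison. At 4 wpt over Post-IS, 0 of 4 were higher and 3 lower, with 14.1% and 15.4% of 6462 genes as background: KLF2 at 2.67-fold (2.20 to 3.24), CXCR4 at 2.40-fold (1.63 to 3.53) and CX3CR1 at 2.02-fold (1.42 to 2.86). Thinned to 1000 UMIs per cell, CX3CR1 in CD14+ monocytes was at 74.2 CPM at 4 wpt and 90.9 CPM at Post-IS, less than 1.5-fold apart. Thinning left out 29 of 312 of these cells at 4 wpt and 142 of 329 at Post-IS. In MS4A7+ monocytes 0 of 2 members were called at Post-IS over Pre-IS, with 18.4% higher and 12.9% lower among 2055 genes. At 4 wpt over Post-IS 1 of 3 was called lower, CXCR4 at 2.31-fold (0.926 to 5.48) on 15 against 10 UMIs, with 19.2% higher and 15% lower among 4617 genes.

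**Figure D4:**
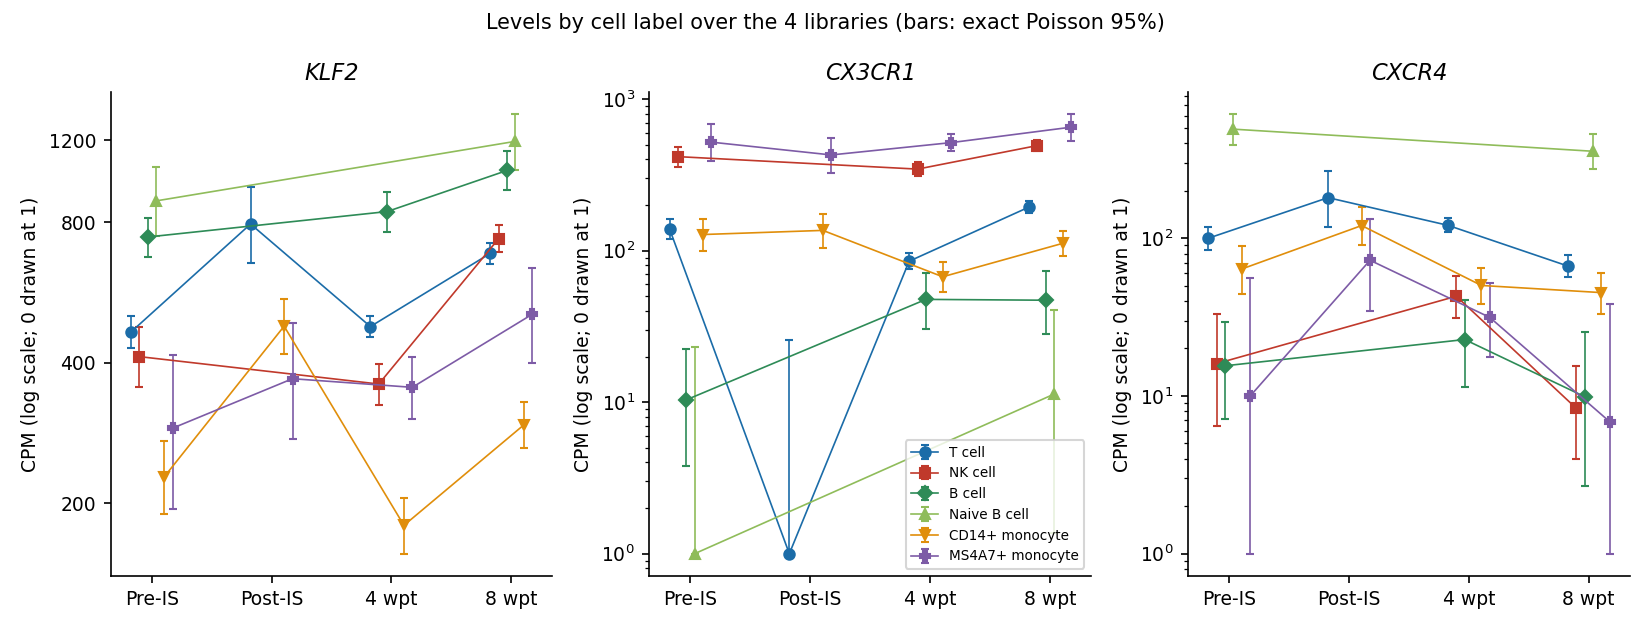
CPM on a log axis (0 drawn at 1) of KLF2, CX3CR1 and CXCR4 in each label of 50 or more cells over the 4 libraries; bars are exact Poisson 95% intervals. KLF2 is higher at 8 wpt than at Pre-IS in all 6 labels, CX3CR1 has no UMI in Post-IS T cells while monocytes have it, and CXCR4 is highest in naive B cells.

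Before any thinning KLF2 stood higher at 8 wpt than at Pre-IS in each label, as the plot of levels by label shows. At 8 wpt over Pre-IS it was above 1 in 6 of 6 labels: 1.47-fold in T cells, 1.79-fold (1.52 to 2.11) in NK cells, 1.39-fold in B cells, 1.34-fold in naive B cells, 1.29-fold in CD14+ monocytes and 1.75-fold (1.13 to 2.79) in MS4A7+ monocytes. Of 1398 genes with enough UMIs in all of these labels, 7.51% were above 1 in all 6. At 8 wpt over 4 wpt it was above 1 in 5 of 5 labels, as were 11.1% of 3856 genes. Against Post-IS the labels differed, with 8 wpt at 0.865-fold (0.715 to 1.06) in T cells, at 0.614-fold (0.514 to 0.735) in CD14+ monocytes and at 1.37-fold (0.949 to 2.0) in MS4A7+ monocytes. The platelet genes also summed higher at 8 wpt than at Pre-IS in the 6 labels, from 17.0 against 3.7 CPM in T cells up to 194 against 23.7 CPM in CD14+ monocytes, and their part in the result was not tested. CCR7 was below 1 in 4 of 4 labels at 8 wpt over Pre-IS, as were 10.3% of 2091 genes, and CXCR4 in 3 of 3, as were 14.6% of 2075 genes. The labels of 1 comparison come from the same pair of libraries and are not replicates. After thinning to 1000 UMIs per cell, KLF2 stayed higher at 8 wpt than at Pre-IS in all labels but MS4A7+ monocytes. There it was at 352 CPM at 8 wpt (19 UMIs), against 405 CPM at Pre-IS (17 UMIs). Median depth of this label was 2023 UMIs at 8 wpt and 1111 at Pre-IS. Thinning kept 54 of its 65 cells at 8 wpt and 42 of 75 at Pre-IS, so the cells compared were not the same as before thinning.

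**Figure D5:**
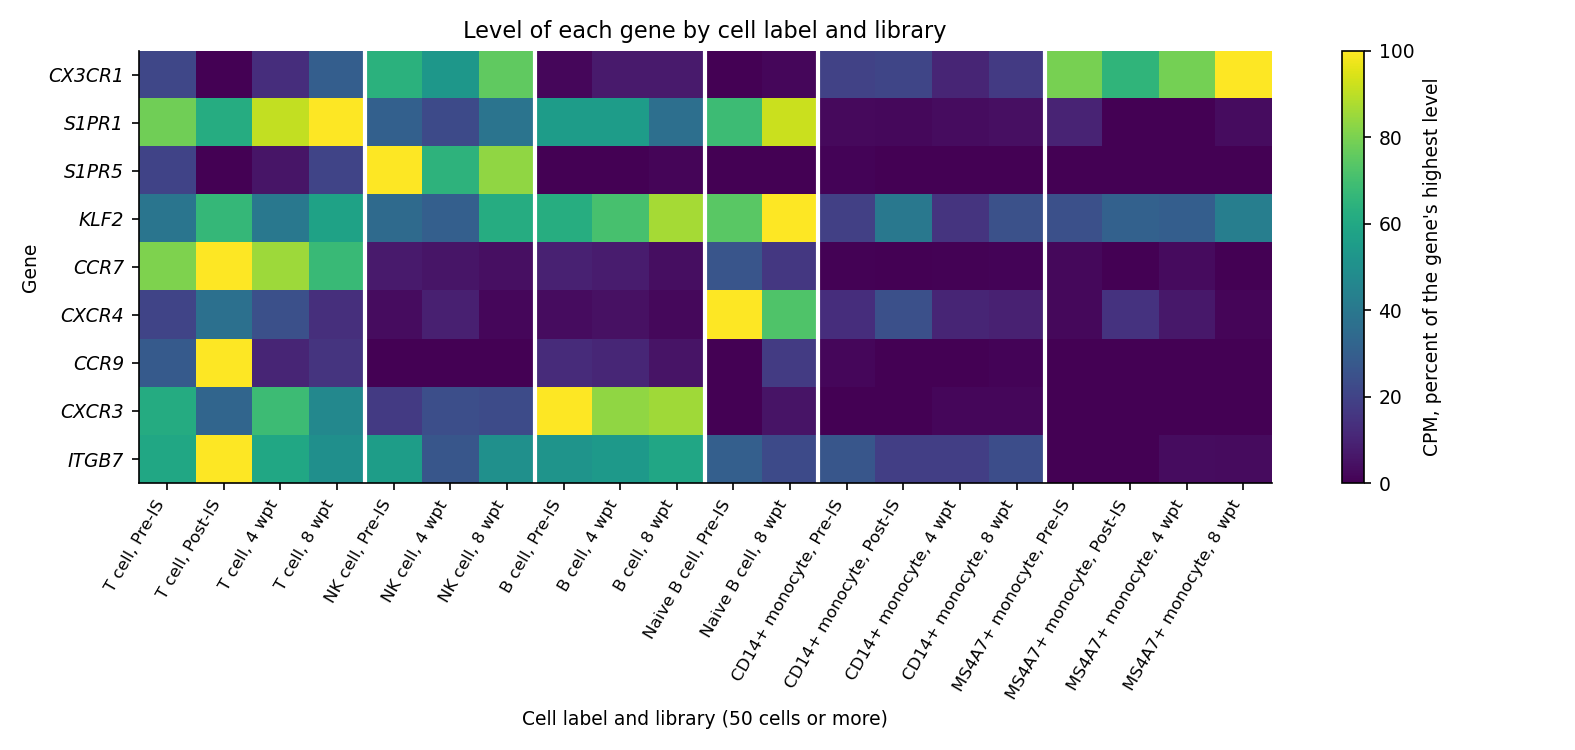
Level of each gene in each label and library of 50 or more cells, as a percentage of that gene's own highest CPM, with genes down the y axis and labels along the x axis. S1PR5 reaches its highest values in NK cells, CCR7 in T cells, CXCR4 in naive B cells and CX3CR1 in MS4A7+ monocytes.

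The map of levels by label, scaled within each gene, gives the order of the labels of 50 or more cells. By the median over libraries, CX3CR1 ran from 518 CPM in MS4A7+ monocytes to 417 CPM in NK cells, 119.7 CPM in CD14+ monocytes, 112 CPM in T cells, 47.1 CPM in B cells and 5.65 CPM in naive B cells. Only the step from NK cells to CD14+ monocytes separated neighbours whose ranges over libraries did not overlap. S1PR5 was at 153 CPM in NK cells and 23.9 CPM in T cells, with ranges apart, and had at most 1 UMI in any library of the other labels of that size. S1PR1 was at 171 CPM in T cells, 163 CPM in naive B cells, 112 CPM in B cells and 61.9 CPM in NK cells. The T cell range overlapped that of naive B cells, and naive B cells lay above B cells. KLF2 stood at 1041 CPM in naive B cells, 843 CPM in B cells, 582 CPM in T cells, 413 CPM in NK cells, 362 CPM in MS4A7+ monocytes and 261 CPM in CD14+ monocytes, and each neighbouring pair overlapped. CCR7 was at 376 CPM in T cells, 96.6 CPM in naive B cells, 35.2 CPM in B cells and 24.8 CPM in NK cells, with T cells above naive B cells and those above B cells beyond their ranges. CXCR4 stood at 424 CPM in naive B cells, apart from 110.4 CPM in T cells. CXCR3 was highest in B cells, where the range lay above that of T cells, and T cells lay above NK cells. ITGB7 overlapped between neighbours from T to B, NK, naive B cells and CD14+ monocytes, and only MS4A7+ monocytes lay apart. CCR9 overlapped between all neighbours, though at Post-IS the T cell level was the highest of any label and library.

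The genes whose levels were most like each member over the 20 pairs of label and library were found among 9691 genes by Pearson's r of log2 CPM, as a description only, since labels share libraries and few labels set each pattern. S1PR5 was nearest to KLRF1, an activating receptor of NK cells, with r of 0.993, to NFILZ at 0.982 and to NMUR1 at 0.980. CX3CR1 was nearest to ACSL5 at 0.915, FCGR3 at 0.907 and RUNX3 at 0.905. CCR7 was nearest to PDK1 at 0.942 and SPOCK2 at 0.941. S1PR1 was nearest to ENO2 at 0.968, CXCR3 to RASGRP1 at 0.959, ITGB7 to SLC66A3 at 0.918, CCR9 to PHC1 at 0.914, CXCR4 to BTG1 at 0.892 and KLF2 to WRAP73 at 0.856. Among the members themselves, S1PR1 and CCR7 were closest at 0.855, and CX3CR1 and CXCR4 ran most opposite at -0.60.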

How the data were processed

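Single-cell RNA libraries of macaque PBMCs were made with the 10x Genomics 5' V1 kit, per the labels' protocols. The submitters' processing notes name Mmul_10 as genome build, with Cell Ranger 3.1.0 and also Seurat 3.2.3 as tools. For each library the authors deposited raw UMI counts per gene and cell, with no normalisation, and a cell type label per barcode. Filters on cells and genes and any doublet removal are not given in the sources used here. No column was without a sample (0).

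The 9 members, the list of 90 other trafficking genes (84 with a row; S1PR4, SPNS2, ICAM3, LTB4R, GNAI2 and MADCAM1 were not analysed here) and the comparisons were chosen with earlier results of these data known. All 9 members are named everywhere; other trafficking genes are named where the interval of the ratio lay beyond 1.5-fold, up to 3 per direction and label in the comparisons used.

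UMI counts were summed per label and library in Python 3.11.15 with numpy 2.4.6, pandas 2.3.3 and scipy 1.17.1, and drawn with matplotlib 3.10.9. The log2 ratio used an offset of 0.5 UMIs. Shares of cells carry exact Clopper-Pearson intervals and were repeated on cells thinned to 1000 UMIs, shallower cells left out. Against 0 UMIs a floor of 3 counts was used. Background shares were taken over all genes whose UMIs over both libraries came to 20 or more. Likeness used log2 of CPM plus 10. No doublet caller was run. Cells above the 99th percentile of UMIs of their label and library, or with at least 2 UMIs of another lineage's markers, were marked as possible doublets (301 of 6993, 4.30%) and left out in an alternative. At Pre-IS 4 of 841 T cells were marked by markers, though T cells held 4408 UMIs of NK cell markers there. NK cell markers thus did not mark T cells, and the marking was not shown to cover doublets with NK cells. Other alternatives were TMM factors (edgeR 4.0.16 in R 4.3.3, for scaling only), median of ratios factors, reduced totals, equal weight per cell, pooled labels, other minimum counts, folds and offsets. The ratio step was tested on simulated data. Sequences of the members were not used here.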

Additional observations from a re-analysis of the deposited data

Results flagged for a closer look

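CX3CR1 moved in opposite directions in different labels of the same libraries, and these differences between labels were not tested. At 4 wpt over Post-IS it was at least 4.08-fold higher in T cells and stood at 0.494-fold in CD14+ monocytes. At 4 wpt over Pre-IS it stood at 4.60-fold in B cells, at 0.611-fold in T cells and at 0.526-fold in CD14+ monocytes. The B cell value rests on 23 UMIs in 11 cells against 6 UMIs. After thinning to 1000 UMIs per cell, CX3CR1 in CD14+ monocytes was at 86.0, 90.9 and 74.2 CPM at Pre-IS, Post-IS and 4 wpt. It was in 7.24%, 9.09% and 7.42% of the thinned cells, with overlapping intervals. The lower 4 wpt level of CD14+ monocytes was thus not clear at even depth.

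Values in labels too small for any comparison were as follows. Proliferating NK/T cells at 8 wpt, 30 cells, had 199 CPM of CX3CR1 and 598 CPM of KLF2. The 12 cells labelled platelet, found at 4 wpt alone, had 737 CPM of KLF2. Their label goes against their markers, with PF4, GP9, ITGA2B and TUBB1 at 0. Dendritic cells at 4 wpt, 23 cells, had 100.03 CPM of CCR7.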

How the results depend on the processing

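Each time is 1 library, and Post-IS T cells were 115 cells with 143725 UMIs, so the floor of 3 counts stood at 20.9 CPM there (exact limit for 0 UMIs 25.7 CPM), against 0.946 CPM at 4 wpt. No paired analysis was possible because each group holds 1 library. Of 272 counts of members, 220 stayed within 1.5 times the value in the report. Of 704 log2 ratios, 687 stayed within their interval, 15 moved and 2 changed sign. Of 126 shares 43 moved, all of them under thinning, and of 216 levels by cytotoxic UMIs 28 moved. The cause of these changes was not tested. For S1PR5 in T cells at 4 wpt over Post-IS an offset of 2 UMIs gave a log2 ratio of -0.29. For CXCR4 in MS4A7+ monocytes at 4 wpt over Post-IS thinning gave 0.063, against -1.23. CXCR4 at 8 wpt over Pre-IS in T cells passed 1.5-fold under TMM, median of ratios, reduced totals, equal weights, without possible doublets and without the cell with the most UMIs (chosen after seeing the data), for 2 lower members each. A fold of 2 left 1 higher and, for 4 wpt over Post-IS, 1 lower in T cells, 0 lower at 8 wpt over 4 wpt and over Pre-IS, 1 lower in NK cells at 4 wpt over Pre-IS, 1 higher at 8 wpt over 4 wpt, 1 lower in B cells, 0 lower in naive B cells and 1 higher in CD14+ monocytes at Post-IS over Pre-IS. Thinning gave 3 lower in T cells at 8 wpt over 4 wpt, 2 higher and 2 lower at 8 wpt over Pre-IS, 2 higher and 1 lower in NK cells at 4 wpt over Pre-IS, 2 lower at 8 wpt over 4 wpt, 1 lower in B cells, 2 higher and 3 lower in naive B cells, 1 higher in CD14+ monocytes at Post-IS over Pre-IS and 0 lower in MS4A7+ monocytes at 4 wpt over Post-IS. Without possible doublets B cells had 0 higher and 1 lower, and NK cells 2 higher at 4 wpt over Pre-IS, as without the top cell, and 2 lower at 8 wpt over 4 wpt. Equal weights gave 2 lower in NK cells at 8 wpt over 4 wpt, 1 in B cells and 2 in naive B cells. Pooled labels gave 1 lower for B and 1 higher for naive B cells, 1 lower for CD14+ monocytes and 2 higher and 1 lower for MS4A7+ monocytes at Post-IS over Pre-IS, and 2 lower at 4 wpt over Post-IS. A minimum of 50 UMIs left 0 higher and 1 lower in B cells, 0 lower in naive B cells and 0 lower in MS4A7+ monocytes at 4 wpt over Post-IS. A minimum of 1 UMI gave 2 higher and 4 lower in B cells, 3 higher in naive B cells, 3 lower in CD14+ monocytes at Post-IS over Pre-IS and 3 higher at 4 wpt over Post-IS, and in MS4A7+ monocytes 1 higher and 2 lower, then 2 higher.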

Other observations

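The CCR7 of dendritic cells at 4 wpt came from 1 cell, which held all 18 of its UMIs among 23 cells. That cell had 7854 UMIs, against a median of 7963 in the 23, and 0 UMIs of the T cell gene CD3E and of the B cell gene CD79A. It also held 11 UMIs of LAMP3 and 22 of FSCN1, genes known from mature dendritic cells on their way to lymph nodes, which had 0 UMIs in the other 22 cells together. CD83 had 61 UMIs in it, against 3 in all the others, and CCL22 had 4 against 2. IDO1 had 1 against 9. These genes were chosen after the values of this cell were seen, and 1 cell shows nothing about a group. Dendritic cells also carried ITGB7, at 169.6 CPM (108 to 254) at Pre-IS, 111 CPM (67.9 to 172) at 4 wpt and 143 CPM (88.7 to 219) at 8 wpt, with UMIs in 50%, 47.8% and 41.4% of 30, 23 and 29 cells. CX3CR1 and S1PR5 had 0 UMIs in dendritic cells of these 3 libraries.

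Proliferating NK/T cells had CX3CR1 at 154 CPM (114 to 204) at 4 wpt and 199 CPM (133 to 288) at 8 wpt, in 48.8% of 41 and 50% of 30 cells. CXCR3 was in 29.3% of them at 4 wpt (69.2 CPM, 43.4 to 105) and in 6.67% at 8 wpt (14.2 CPM, 1.72 to 51.5). These cells were deeper at 4 wpt, with a median of 6973 UMIs, than at 8 wpt, with 3484.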
